A study of Mus musculus with 15 samples.

Results

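The small liver tumour nodules of 3 mice were compared with 3 livers of control mice, 6 of the 15 samples of a study of hepatocellular carcinoma in C57BL/6J mice. Samples were assigned by their titles: a nodule labelled small and a nodule labelled big came from each of model mice 8, 15 and 25, and the livers came from mice called normal. Control mice were injected intraperitoneally with corn oil, and model mice with diethylnitrosamine (DEN) and carbon tetrachloride (CCl4). Polyadenylated RNA was sequenced, and levels are FPKM, fragments scaled to transcript length and to the mapped fragments of the sample. The labels give no age, time of collection, nodule diameter or histology, and no liver next to a nodule was among the 15 samples, so the tumour, the carcinogen and the chronic injury cannot be told apart here. The labels name no sex. The Y-linked gene Ddx3y was at 15.9, 19.5 and 19.3 FPKM in the livers and at 18.2, 16.1 and 16.9 FPKM in the small nodules, so all 6 samples held RNA of a Y chromosome. Values of a gene are given throughout in the order liver 2, liver 3, liver 5 and then small nodules of mice 8, 15 and 25.

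DEN is a carcinogen that hepatocytes activate through cytochrome P450 enzymes into a DNA-alkylating species, and CCl4 is a toxicant that kills pericentral hepatocytes, so that repeated doses bring regeneration and fibrosis. Normal hepatocytes rarely divide and are zoned: those around the central vein receive Wnt ligands and run glutamine synthesis and most xenobiotic metabolism, while those near the portal vein run urea synthesis and gluconeogenesis. Male mouse liver also secretes large amounts of major urinary proteins (Mup), which growth hormone pulses maintain, and adult hepatocytes silence fetal genes such as Afp, the gene of alpha-fetoprotein.

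Afp rose and the Mup genes fell, and the 250 bases before the RefSeq starts of Afp and of a pair of Mup genes are shown as an example of each direction (RefSeq, GRCm38.p6). In the Afp promoter at chr5:90490464-90490713, plus strand, capitals mark the only match of the TATA letters (TATAAA), found in many promoters near the start of transcription. The match begins 7 bases before the start. Both strands were searched, and 4063 of 32851 mouse promoters of that length (12.4%) held a match. Mup17 (chr4:61595833-61596082) and Mup19 (chr4:61782225-61782474), both on the minus strand, share a run of 155 identical bases, shown in capitals, which begins 227 and 231 bases before their starts.
Afp: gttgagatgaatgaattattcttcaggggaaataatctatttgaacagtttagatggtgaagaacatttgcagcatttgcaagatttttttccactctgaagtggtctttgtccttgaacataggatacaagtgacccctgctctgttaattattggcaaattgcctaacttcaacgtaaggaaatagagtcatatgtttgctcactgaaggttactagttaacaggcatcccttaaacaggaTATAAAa
Mup17: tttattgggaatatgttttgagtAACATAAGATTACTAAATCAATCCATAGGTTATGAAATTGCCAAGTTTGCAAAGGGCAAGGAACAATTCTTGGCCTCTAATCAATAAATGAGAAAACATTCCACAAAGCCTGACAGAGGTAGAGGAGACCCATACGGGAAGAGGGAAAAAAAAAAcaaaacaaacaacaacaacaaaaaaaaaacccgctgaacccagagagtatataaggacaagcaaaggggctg
Mup19: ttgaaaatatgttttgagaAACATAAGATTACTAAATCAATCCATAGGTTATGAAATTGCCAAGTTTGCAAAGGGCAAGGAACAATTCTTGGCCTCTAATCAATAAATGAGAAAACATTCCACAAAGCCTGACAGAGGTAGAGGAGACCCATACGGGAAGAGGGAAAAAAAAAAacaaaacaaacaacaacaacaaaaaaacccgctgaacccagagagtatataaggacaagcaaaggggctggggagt
A match is a string of letters and not a measured site. The Mup and Cyp2 families hold closely related genes among which the counting can divide reads, so values, ranks and tests of single members are uncertain and are given below as the deposited table assigns them. Of 13919 gene symbols in the expression table, 10740 had a promoter in the RefSeq table.

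Of 13938 genes in the table, 10262 reached 1 FPKM in at least 3 of the 6 samples and were tested with limma on log2(FPKM + 1). At a Benjamini-Hochberg adjusted p under 0.05, 3489 genes were called (34% of those tested): 2428 were higher in small nodules (23.7%) and 1061 lower (10.3%). The genes were at least 2-fold higher in 929 cases and at least 2-fold lower in 427, and at least 16-fold in 23 and 20. Counts over a gene list are to be read against these shares. In 49.7% of genes the 3 nodules and the 3 livers did not overlap at all (33.9% with the nodules higher, 15.8% with the livers higher). "Rose" and "fell" are used below only for called genes. In a whole-tissue sample, a change in the share of a cell type and a change of RNA per cell cannot be told apart.

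The balance of rises and falls depended on the scale. The median log2 difference over all genes was 0.14 on the deposited scale, where 69.6% of calls were rises. Rescaling samples to the same summed FPKM gave 3169 rises and 746 falls (80.9% rises, median 0.26). Median-of-ratios scaling gave 1663 rises and 1872 falls (47.0%, median -0.05), and quantile normalization gave 1636 and 1613 (50.4%, median -0.04). With no filter on low values 3134 genes rose and 1112 fell of 13685 (73.8% rises), and with a filter at 5 FPKM 1184 rose and 840 fell of 5689 (58.5% rises). A core of 1862 calls, 1273 rises and 589 falls, held under every one of the 15 alternatives that tested the gene. These were 12.4% and 5.74% of the genes tested, and list counts under every alternative are to be read against these shares. Every gene described below as risen or fallen belongs to that core unless the loss of its call is stated. In all, 594 genes passed the filter only through the small nodules, so 554 of them rising follows largely from the filter. The core holds 350 of these genes and 923 rises that passed in another way. For lists that hold such genes, the counts with no filter are given over all members in the table, where 22.9% of all genes rose and 8.13% fell. Another 82 genes passed only through the livers, so 80 of them falling follows largely from the filter as well. Susd4, Nat8, Nkd1, Serpine2 and P4ha2, named below, are among them. For these genes the filter required every nodule to lie below every liver.

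**Figure D1:**
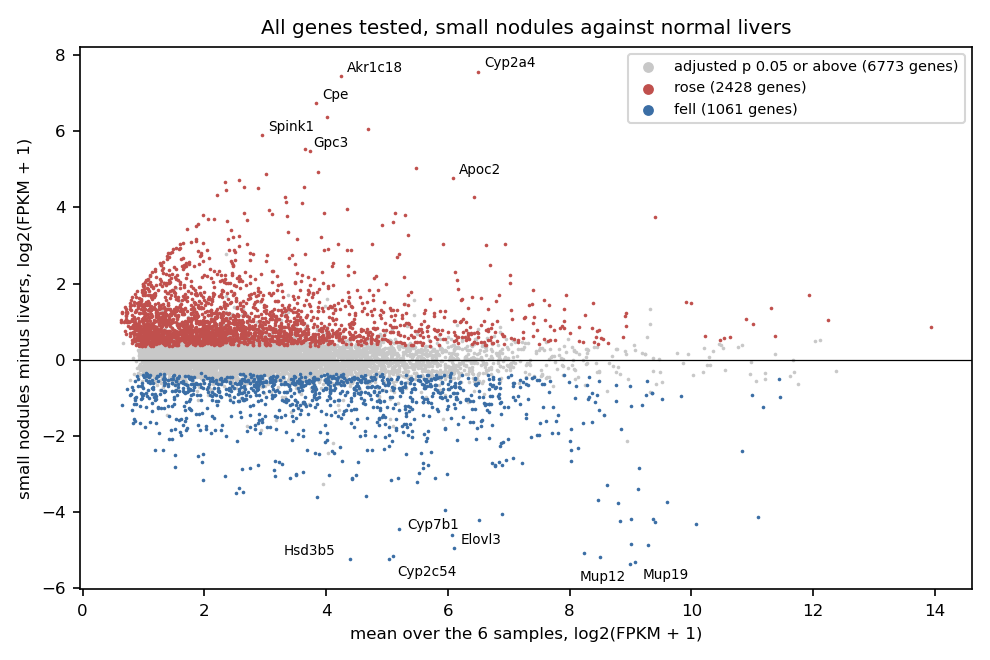
Each point is 1 of the 10262 genes tested, with its mean log2(FPKM + 1) over the 6 samples on the x axis and the difference between small nodules and normal livers on the y axis. The 2428 genes that rose are red, the 1061 that fell are blue, and the 12 labels mark genes among the largest changes, from Cyp2a4 at the top to Mup12 at the bottom.

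Livers correlated with each other at 0.984 to 0.990 across genes on the log2 scale, small nodules at 0.971 to 0.977, and livers with small nodules at 0.912 to 0.933. Mup genes took 10.98% to 14.3% of summed FPKM in the livers and 2.33% to 2.80% in the small nodules, while mitochondrially encoded genes took 7.83% to 11.1% and 7.40% to 8.98%. FPKM are relative to a total, and the part of the Mup share in the rises was not tested beyond the scalings above.

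The smallest p among rises belonged to Cpe (gene at chr8:64592542-64693054), carboxypeptidase E, which trims prohormones in neuroendocrine cells. Cpe was at 0.347, 0.422 and 0.362 FPKM in the livers and 159.7, 125 and 156 FPKM in the small nodules (log2 difference 6.74 ± 0.14, adjusted p 6.15e-07). The 3 nodules lay within a narrow band far above every liver. Cd63, a tetraspanin of late endosomes and exosomes, went from 1.38, 1.82 and 1.57 FPKM to 55.5, 68.3 and 53.3 FPKM (log2 difference 4.53 ± 0.15, adjusted p 6.81e-06). Fabp5, an epidermal fatty acid-binding protein, went from 4.72, 3.77 and 3.93 FPKM to 88.6, 73.9 and 75.4 FPKM (log2 difference 3.96 ± 0.14, adjusted p 7.27e-06). All 3 nodules stood far above all 3 livers in both. Gldn, gliomedin, which gathers sodium channels at nodes of Ranvier in nerve, was at 0.0204, 0 and 0 FPKM in livers and 23.7, 19.9 and 31.5 FPKM in nodules (adjusted p 9.93e-06). Map3k6, a kinase that feeds stress-activated MAP kinases, was at 0.176, 0.318 and 0.133 FPKM against 11.1, 8.75 and 9.95 FPKM (log2 difference 3.17 ± 0.14, adjusted p 1.84e-05). Tagln2, the actin-binding protein transgelin 2, was at 5.17, 4.77 and 4.92 FPKM against 38.7, 48.0 and 45.2 FPKM (log2 difference 2.91 ± 0.13, adjusted p 1.84e-05). Each of these genes was close to silent or low in all 3 livers and present in all 3 nodules. Akr1c18, Ly6d, Nipal1 and Tmem71 also stood among the 12 smallest p, with nodule ranges of 151 to 321, 114 to 169, 15.9 to 18.2 and 7.60 to 8.55 FPKM. Cpe, Gldn, Map3k6, Akr1c18, Nipal1 and Tmem71 were under 1 FPKM in every liver. For these genes the filter required every nodule to lie above every liver.

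By size the largest rise was that of Cyp2a4 (chr7:26307169-26315088), a steroid 15-alpha-hydroxylase of the cytochrome P450 family, at 5.41, 5.80 and 5.41 FPKM in livers and 1840.0, 819 and 1273 FPKM in nodules (log2 difference 7.57 ± 0.27, adjusted p 7.27e-06). Its level varied among nodules, with mouse 8 highest, and hardly at all among livers. Cyp2b9, another P450 gene, went from 1.35, 0.810 and 3.37 FPKM to 98.4, 45.0 and 116 FPKM (log2 difference 4.94 ± 0.42, adjusted p 0.000195). Akr1c18, a progesterone-reducing 20-alpha-hydroxysteroid dehydrogenase, went from 0.816, 0.377 and 0.151 FPKM to 321, 151 and 320.1 FPKM (log2 difference 7.46 ± 0.31, adjusted p 1.68e-05). In all 3 genes the mouse 15 nodule was the lowest of the nodules. Apoc2, the cofactor of lipoprotein lipase, went from 15.7, 14.2 and 7.67 FPKM to 322, 283 and 479.7 FPKM (log2 difference 4.77 ± 0.29, adjusted p 4.82e-05). Ifi27l2b, an interferon-inducible gene family member, went from 6.83, 10.6 and 4.30 FPKM to 236, 233 and 301 FPKM (log2 difference 5.03 ± 0.27, adjusted p 3.55e-05). In absolute FPKM the largest gains were of plasma protein genes. Ahsg, fetuin-A, went from 2316, 2144 and 1999.9 FPKM to 6875, 6701 and 7475 FPKM (log2 difference 1.70 ± 0.15, adjusted p 0.000212). Trf, transferrin, went from 1594, 1556 and 1598 FPKM to 4672, 3258 and 4449.8 FPKM (log2 difference 1.36 ± 0.18, adjusted p 0.00107). Apoa4, a lipoprotein component, went from 183, 264 and 129 FPKM to 2452, 3104 and 2005 FPKM (log2 difference 3.74 ± 0.28, adjusted p 0.000109). Apoa4 rose most steeply of the 3. Alb, albumin, was called too (log2 difference 0.86 ± 0.17, adjusted p 0.0074), but its call was lost with no filter, under median-of-ratios scaling and under quantile normalization, with adjusted p from 0.00267 to 1 over its alternatives.

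Among falls the smallest p was that of Oat (chr7:132557478-132576398), the pericentral ornithine aminotransferase, at 389, 385 and 408 FPKM in livers and 20.8, 17.04 and 22.8 FPKM in nodules (log2 difference -4.23 ± 0.14, adjusted p 6.81e-06). The 3 livers lay within a few percent of each other and the nodules far beneath them. Hsd3b5, a 3-beta-hydroxysteroid dehydrogenase of male liver, went from 141, 129.5 and 116 FPKM to 2.25, 1.301 and 4.20 FPKM (log2 difference -5.26 ± 0.27, adjusted p 3.39e-05). Elovl3, which elongates very long fatty acids, went from 412, 302 and 444 FPKM to 10.3, 7.57 and 18.2 FPKM (log2 difference -4.96 ± 0.29, adjusted p 4.7e-05). Cyp7b1, an oxysterol hydroxylase of bile acid synthesis, went from 195, 215 and 118 FPKM to 5.72, 5.88 and 9.15 FPKM (log2 difference -4.47 ± 0.26, adjusted p 4.59e-05). The Cyp2c drug-metabolizing genes Cyp2c54, Cyp2c37 and Cyp2c50 were at 197 to 210.0, 178 to 242 and 317 to 349 FPKM in livers and at 3.01 to 6.02, 2.86 to 6.82 and 9.24 to 15.3 FPKM in nodules. Their log2 differences were -5.25 ± 0.20, -5.17 ± 0.26 and -4.60 ± 0.19 (adjusted p 1.04e-05, 2.78e-05 and 1.41e-05).

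Mup17 and Mup19, whose promoters are printed above, were at 4208, 3455 and 2718 and 3834, 3110.0 and 3301 FPKM in the livers. In the small nodules they were at 96.1, 50.3 and 307 and 69.4, 37.0 and 227 FPKM, so mouse 25 kept the most and mouse 15 the least of both. Their log2 differences were -4.88 ± 0.57 and -5.33 ± 0.56 (adjusted p 0.00069 and 0.00046). Mup3, a more divergent member, was at 4125, 4219 and 4265 FPKM in livers and 813, 802 and 765 FPKM in nodules (log2 difference -2.40 ± 0.13, adjusted p 3.55e-05), with almost no spread among the nodules. Other steep falls were of Rnase4, a secreted ribonuclease (402, 445 and 313 to 58.4, 57.0 and 56.3 FPKM, log2 difference -2.72 ± 0.16, adjusted p 4.53e-05), and Aox3, an aldehyde oxidase (137, 120.1 and 110.1 to 15.5, 17.7 and 20.6 FPKM, log2 difference -2.71 ± 0.15, adjusted p 4.04e-05). Susd4, a complement regulator, ranged from 9.22 to 12.5 FPKM in the livers and from 0.198 to 0.439 FPKM in the small nodules. Nat8, which acetylates cysteine conjugates, ranged from 13.6 to 23.4 FPKM in the livers and from 0.763 to 0.922 FPKM in the small nodules. Their log2 differences were -3.17 ± 0.15 and -3.38 ± 0.19 (adjusted p 2.15e-05 and 4.53e-05). Both passed the filter only through the livers.

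Of 20 listed transcripts of fetal liver and liver cancer, 15 had a row, 13 passed the filter (6 only through the nodules) and 12 rose, 11 of them under every alternative. With no filter 11 of 14 rose. The list was chosen with earlier results of these data known. Its members Gpc3, Spink1 and Ly6d are also among the 12 largest rises, and Afp is among the 12 smallest p of rises. The count of rises in this list therefore repeats those genes. Afp was at 0.358, 0.353 and 0.195 FPKM in livers and 32.1, 21.4 and 35.6 FPKM in nodules (log2 difference 4.53 ± 0.20, adjusted p 1.84e-05). Golm1, a Golgi membrane protein used as a serum marker of liver cancer, was at 0.583, 0.985 and 0.439 FPKM against 21.8, 18.3 and 30.2 FPKM (log2 difference 3.85 ± 0.21, adjusted p 3.55e-05). Gpc3, the cell-surface proteoglycan glypican 3, was at 0.5799, 1.25 and 0.726 FPKM against 122, 33.1 and 148 FPKM (log2 difference 5.55 ± 0.51, adjusted p 0.000254). Spink1, a secreted trypsin inhibitor, had a listed value of 0 in each liver and was at 117, 18.9 and 90.7 FPKM in nodules (adjusted p 0.000376). The mouse 15 nodule had the lowest value of all 4 genes, by a wide margin for Gpc3 and Spink1 and a narrow one for Afp and Golm1. The stem and progenitor genes Prom1, Sox4 and Cd24a rose as well, to 4.77 to 10.04, 2.48 to 3.06 and 2.94 to 5.46 FPKM from 0.166 to 0.315, 0.392 to 0.865 and 0.809 to 1.27 FPKM. Scd2, a stearoyl-CoA desaturase of fetal liver and brain, went from 1.41, 1.24 and 1.61 FPKM to 61.3, 30.1 and 38.5 FPKM (log2 difference 4.14 ± 0.24, adjusted p 4.59e-05). Epcam, a surface protein of biliary and progenitor cells, overlapped (1.07, 1.46 and 1.496 against 0.956, 0.721 and 2.63 FPKM, adjusted p 0.965). Igf2, the fetal growth factor, was listed at 0 in all 6 samples.

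Ligands of the EGF receptor were higher in small nodules, and the hepatic growth factors Igf1 and Fgf1 were lower. Of 22 listed ligands 18 had a row and 15 passed (4 only through nodules), with 7 rises and 2 falls, 5 and 0 of them under every alternative. The falls numbered 0 without liver 2, 1 without liver 3, without liver 5 or without the small nodule of mouse 8, and 4 under quantile normalization. With no filter 7 of 17 rose and 2 fell. Btc, betacellulin, was at 0.338, 0.416 and 0.299 FPKM in livers and 5.23, 4.25 and 5.69 FPKM in nodules (log2 difference 2.16 ± 0.13, adjusted p 5.08e-05). Areg, amphiregulin, was listed at 0 in every liver and at 1.36, 5.44 and 3.04 FPKM in nodules (adjusted p 0.00274), highest in mouse 15. Hbegf, another EGF receptor ligand, was at 0.380, 0.290 and 0.893 FPKM against 3.998, 1.88 and 2.03 FPKM (log2 difference 1.23 ± 0.24, adjusted p 0.00687), highest in mouse 8. These ligands were thus raised in all 3 nodules but in no common order. Btc, Areg and Hbegf were under 1 FPKM in every liver, so with the filter every nodule had to lie above every liver. Tgfa, the fourth, was at 2.98, 3.77 and 3.24 FPKM against 19.7, 5.61 and 19.5 FPKM (log2 difference 1.71 ± 0.41, adjusted p 0.0159). The call was lost without liver 2, with adjusted p from 0.000155 to 0.0552 over its alternatives. The platelet-derived growth factors Pdgfa and Pdgfb went from 1.99 to 3.22 and 0.0353 to 0.393 to 5.27 to 7.57 and 1.47 to 2.29 FPKM (adjusted p 0.01 and 0.00122). Igf1, the hepatic growth factor under growth hormone control, was at 67.1, 72.1 and 46.6 FPKM against 24.4, 41.9 and 13.6 FPKM (log2 difference -1.299 ± 0.37, adjusted p 0.0288), lower in each nodule, but its call was lost without liver 2, liver 3 or the small nodule of mouse 8, with adjusted p from 0.00584 to 0.0947 over its alternatives. Fgf1 was at 26.6, 18.0 and 24.3 FPKM against 11.03, 15.2 and 7.16 FPKM (log2 difference -1.02 ± 0.26, adjusted p 0.0199). The call was lost without liver 2 or liver 5, with adjusted p from 0.00734 to 0.0742 over its alternatives. Vegfa, the main angiogenic factor, overlapped (27.8, 27.5 and 29.2 against 36.7, 26.4 and 30.7 FPKM, adjusted p 0.524).

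Of 25 listed growth and hormone receptors 20 passed the filter (2 only through nodules), 10 rose and 4 fell. Under every alternative 3 rises and 2 falls held, where 12.4% and 5.74% of all genes tested did. The counts were 6 and 2 without liver 2, 5 and 2 without liver 3, 8 and 2 without the small nodule of mouse 25, and 5 and 2 under quantile normalization. With no filter 9 of 24 rose and 4 fell. Ghr, the growth hormone receptor, was at 76.0, 81.7 and 65.3 FPKM in livers and 17.6, 28.4 and 21.8 FPKM in nodules (log2 difference -1.70 ± 0.19, adjusted p 0.000559). Prlr, the prolactin receptor, was at 8.91, 8.50 and 6.95 FPKM against 2.72, 3.87 and 0.901 FPKM (log2 difference -1.48 ± 0.32, adjusted p 0.00975). Both were lower in each nodule than in any liver. Axl, the receptor of Gas6, was at 3.00, 4.04 and 2.34 FPKM against 7.38, 10.5 and 8.23 FPKM (log2 difference 1.24 ± 0.19, adjusted p 0.00244). Igf2r, which carries lysosomal enzymes and clears IGF2, was at 4.74, 4.33 and 4.56 FPKM against 7.90, 8.65 and 9.72 FPKM (log2 difference 0.81 ± 0.13, adjusted p 0.00252). Lepr, the leptin receptor, was at 0.231, 0.469 and 0.272 FPKM against 5.82, 12.7 and 3.02 FPKM (log2 difference 2.45 ± 0.39, adjusted p 0.00256). Lepr was the least even of them and was highest in mouse 15. Egfr itself was at 54.2, 83.9 and 21.5 FPKM against 50.7, 57.4 and 46.8 FPKM (adjusted p 0.814), with the nodules inside the wide span of the livers, and Met, the receptor of hepatocyte growth factor, was at 2.62, 2.099 and 3.09 FPKM against 2.29, 8.22 and 1.87 FPKM (adjusted p 0.6), high in mouse 15 alone.

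Transcripts that ERK signalling induces moved in both directions. Of 22 listed 16 passed (2 only through nodules), 8 rose and 3 fell, 6 and 2 of them under every alternative, and with no filter 9 of 18 rose and 2 fell. The feedback phosphatases Dusp4 and Dusp5 were at 0.417, 0.493 and 0.610 and 0.301, 0.123 and 0.658 FPKM in livers and 8.64, 3.56 and 7.41 and 5.58, 3.94 and 11.9 FPKM in nodules (log2 difference 2.25 ± 0.27, adjusted p 0.000698 for Dusp4, and log2 difference 2.48 ± 0.34, adjusted p 0.00127 for Dusp5). Spred2 and Spry1, inhibitors of RAS-ERK signalling, went from 1.55 to 2.29 and 1.81 to 3.88 to 4.61 to 7.56 and 5.60 to 5.95 FPKM (adjusted p 0.00191 and 0.0109). Ier3, an early response gene, went from 0.465, 0.272 and 1.21 FPKM to 3.67, 10.9 and 15.0 FPKM (log2 difference 2.59 ± 0.44, adjusted p 0.00337). All 3 nodules stood above all 3 livers in each. For Dusp4 and Dusp5, under 1 FPKM in every liver, this follows from the filter. The immediate early transcription factors went the other way: Egr1 was at 80.7, 95.0 and 145 FPKM in livers and 17.8, 27.5 and 23.5 FPKM in nodules (log2 difference -2.15 ± 0.25, adjusted p 0.000622). Fos was at 27.4, 25.3 and 42.8 FPKM against 5.58, 1.22 and 3.38 FPKM (log2 difference -3.00 ± 0.38, adjusted p 0.00102). Dusp6 (50.2, 58.8 and 70.1 against 69.9, 26.5 and 46.8 FPKM) and Myc (3.46, 4.11 and 8.55 against 2.79, 7.08 and 4.31 FPKM) overlapped between groups and were not called (adjusted p 0.365 and 0.79).

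**Figure D2:**
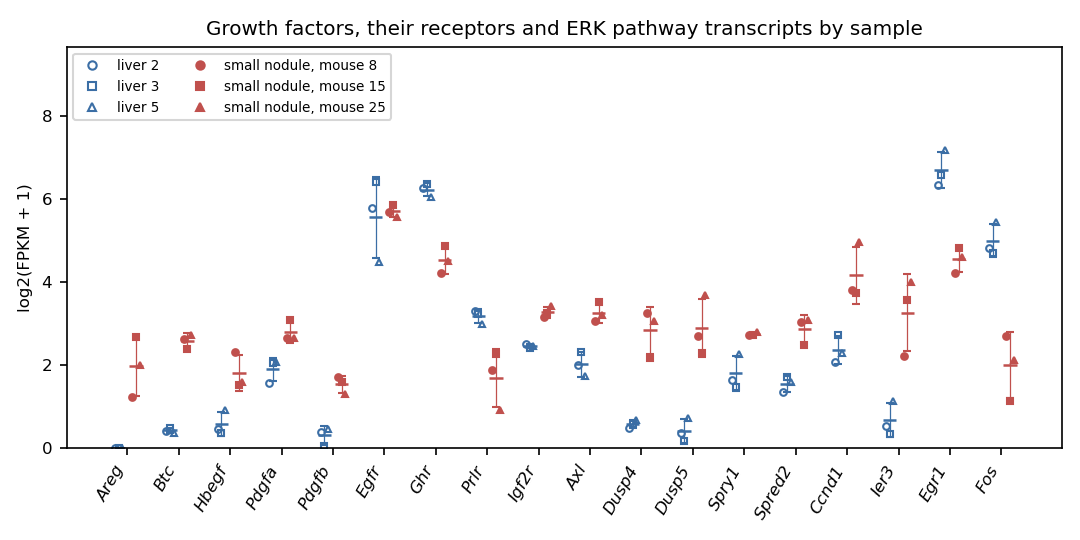
Levels of 18 growth factor, receptor and ERK pathway genes in log2(FPKM + 1), with livers as open blue symbols, small nodules as filled red symbols, a symbol shape per sample, and bars for the mean and SD of each group (n = 3). EGF receptor ligands and feedback genes lie higher in the nodules, Egfr overlaps, and Ghr, Prlr, Egr1 and Fos lie lower.

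Among Wnt feedback genes and hepatocyte targets of beta-catenin no gene rose and most of those tested fell. Of 20 listed genes 15 passed the filter, 11 fell and 4 were not called, the falls all holding under every alternative, and with no filter 14 of 20 fell against 8.13% of all genes. Without the small nodule of mouse 15, 1 gene was called higher. Glul, glutamine synthetase, was at 286, 294 and 278 FPKM in livers and 26.4, 50.8 and 49.8 FPKM in nodules (log2 difference -2.79 ± 0.24, adjusted p 0.000218). Slc1a2, the glutamate transporter of the same pericentral cells, was at 13.4, 14.8 and 12.9 FPKM against 0.612, 0.625 and 1.05 FPKM (log2 difference -3.07 ± 0.14, adjusted p 2.15e-05). Rhbg, an ammonium channel, was at 6.27, 5.28 and 5.66 FPKM against 0.926, 0.928 and 1.32 FPKM (log2 difference -1.71 ± 0.14, adjusted p 0.000142). Cyp2e1 and Cyp1a2, P450 enzymes of the same zone, went from 1382 to 1610.4 and 245 to 334 to 125 to 276 and 30.6 to 72.6 FPKM (log2 differences -2.85 ± 0.29 and -2.68 ± 0.30, adjusted p 0.000427 and 0.00058). The secreted Wnt inhibitor Notum and the feedback gene Nkd1 fell as well, Notum from 10.6, 11.9 and 13.4 FPKM to 3.19, 3.93 and 2.85 FPKM (log2 difference -1.59 ± 0.15, adjusted p 0.000299). Nkd1 went from 1.67, 1.16 and 2.21 FPKM to 0.530, 0.432 and 0.330 FPKM (log2 difference -0.89 ± 0.16, adjusted p 0.00471). Axin2 and Lgr5, classical Wnt targets under the filter, were at 0.764 to 1.43 and 0.999 to 1.63 FPKM in livers and 0.174 to 0.341 and 0.115 to 0.169 FPKM in nodules. Rnf43 and Znrf3, ligases that remove Wnt receptors, overlapped between groups at 1.46, 2.65 and 2.91 against 1.04, 1.71 and 2.37 FPKM and 0.627, 1.45 and 1.36 against 0.644, 1.18 and 0.517 FPKM. Znrf3 was called lower under quantile normalization, with adjusted p from 0.0281 to 0.655 over its alternatives.

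Genes bound by YAP and TEAD, the effectors of the Hippo pathway, showed no common direction. Of 18 listed 14 passed, 5 rose and 1 fell, and these 6 calls held under every alternative. With no filter 6 of 18 rose and 1 fell. Ajuba, a LIM protein that inhibits the Hippo kinases, was at 1.39, 1.36 and 1.39 FPKM in livers and 3.80, 6.69 and 5.50 FPKM in nodules (log2 difference 1.39 ± 0.18, adjusted p 0.00111). Wwtr1, which encodes the YAP partner TAZ, was at 4.61, 5.31 and 5.87 FPKM against 10.99, 13.3 and 11.5 FPKM (log2 difference 1.05 ± 0.14, adjusted p 0.00116). Yap1 itself was at 9.43, 9.32 and 7.83 FPKM against 10.6, 9.46 and 10.2 FPKM (adjusted p 0.346). Cyr61, the most widely used YAP target, fell from 36.6, 47.6 and 109.6 FPKM to 7.45, 6.44 and 10.6 FPKM (log2 difference -2.70 ± 0.38, adjusted p 0.00152). Among Notch genes 8 of 15 listed passed (1 only through nodules) and 4 rose, 2 of them under every alternative and 2 in all without liver 2, without liver 3 or under median-of-ratios or quantile scaling. With no filter 9 of 15 rose. Hes1, the main Notch target, went from 3.06, 3.17 and 3.02 FPKM to 12.5, 14.0 and 10.3 FPKM (log2 difference 1.69 ± 0.14, adjusted p 0.000196). Dll4, a Notch ligand of endothelium, went from 0.756, 0.825 and 0.985 FPKM to 3.82, 2.02 and 3.00 FPKM (log2 difference 1.07 ± 0.18, adjusted p 0.00353).

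In the TGF-beta, activin and BMP list 23 of 25 genes passed (1 only through nodules), 7 rose and 2 fell, and 4 and 2 without liver 2. Under every alternative 4 rises and 2 falls held, where 12.4% and 5.74% of all genes tested did. With no filter 7 of 25 rose and 2 fell. Tgfbr2, the type II TGF-beta receptor, was at 2.23, 2.75 and 2.56 FPKM in livers and 14.5, 12.1 and 22.1 FPKM in nodules (log2 difference 2.26 ± 0.21, adjusted p 0.000299). The activin subunit genes moved apart: Inhbb rose from 0.198, 0.401 and 0.546 FPKM to 20.3, 4.51 and 7.57 FPKM (log2 difference 2.87 ± 0.43, adjusted p 0.00212), Inhbc, a liver-specific subunit, fell from 59.6, 52.8 and 44.9 FPKM to 15.9, 22.2 and 15.3 FPKM (log2 difference -1.52 ± 0.18, adjusted p 0.000708), and Inhba overlapped at 2.46, 3.81 and 2.20 FPKM against 3.199, 7.27 and 4.30 FPKM (adjusted p 0.127). The BMP-induced inhibitors of differentiation moved apart as well, with Id1 going from 2.06, 4.23 and 5.37 FPKM to 19.8, 22.7 and 37.8 FPKM (log2 difference 2.52 ± 0.32, adjusted p 0.000982). Id3 went from 24.8, 23.0 and 28.8 FPKM to 7.75, 8.17 and 10.5 FPKM (log2 difference -1.44 ± 0.15, adjusted p 0.000491).

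Transcripts of mitosis were raised together. All 22 listed genes had a row, 15 passed the filter, each of them only through the small nodules, and all 15 rose. With no filter on level, 22 of 22 rose against 22.9% of all genes, with a median log2 difference of 1.40 against 0.13. The list itself was chosen with earlier results of these data known. Ccnb2, cyclin B2, was at 0.289, 0.467 and 0.461 FPKM in livers and 5.99, 11.3 and 5.16 FPKM in nodules (log2 difference 2.53 ± 0.25, adjusted p 0.000366). Top2a, topoisomerase II, was at 0.217, 0.291 and 0.323 FPKM against 4.13, 3.204 and 1.93 FPKM (log2 difference 1.64 ± 0.20, adjusted p 0.000839). Cenpa, the centromeric histone, was at 0.372, 0.341 and 0.319 FPKM against 2.85, 2.54 and 2.26 FPKM (log2 difference 1.40 ± 0.12, adjusted p 0.000181). Mki67, the proliferation antigen Ki-67, which is not in the list, was at 0.347, 0.551 and 0.299 FPKM against 5.37, 7.24 and 3.28 FPKM (log2 difference 2.12 ± 0.23, adjusted p 0.000531). Ccnb2 and Mki67 were highest in mouse 15, and all 4 were lowest in mouse 25. All 4 were under 1 FPKM in every liver, so with the filter every nodule had to lie above every liver.

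Replication genes did not follow to the same extent. Of 20 listed 14 passed (2 only through nodules), 3 rose and 1 fell, with 1 rise and 1 fall under every alternative. Rises numbered 6 after rescaling to the same sum, 5 without the small nodule of mouse 25 and 1 under quantile normalization. With no filter 8 of 20 rose and 1 fell. The helicase subunit Mcm6 was at 1.61, 1.00 and 1.78 FPKM in livers and 6.11, 3.63 and 3.34 FPKM in nodules (log2 difference 1.10 ± 0.22, adjusted p 0.0073), while Pcna, the sliding clamp, was at 11.8, 9.18 and 11.2 FPKM against 16.6, 13.3 and 11.6 FPKM and Mcm4 at 2.36, 1.63 and 2.12 FPKM against 2.55, 2.60 and 2.27 FPKM, neither called under any alternative that tested it (adjusted p 0.165 and 0.297). Mcm10, a replication initiation factor, was the exception and fell, from 7.96, 9.31 and 10.5 FPKM to 0.748, 2.37 and 1.80 FPKM (log2 difference -2.004 ± 0.24, adjusted p 0.000803).

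Inhibitors of the cell cycle rose beside the genes of division. Among 20 listed G1 cyclins, kinases and inhibitors 19 passed (5 only through nodules) and 11 rose, 8 under every alternative, with 10 of 20 rising with no filter. Ccnd1, cyclin D1, was at 3.24, 5.67 and 3.96 FPKM in livers and 13.1, 12.4 and 30.3 FPKM in nodules (log2 difference 1.80 ± 0.34, adjusted p 0.00539). Ccne1, cyclin E1, was at 0.464, 0.143 and 0.169 FPKM against 3.05, 1.76 and 5.19 FPKM (log2 difference 1.71 ± 0.28, adjusted p 0.00277). Both were highest in mouse 25. Cdkn1a, the p53 target p21, was at 12.6, 7.53 and 19.2 FPKM against 55.0, 35.8 and 34.7 FPKM (log2 difference 1.65 ± 0.32, adjusted p 0.00614). The neighbouring INK4 genes were close to silent in the livers. Cdkn2b was at 0.0681, 0.147 and 0 FPKM against 15.8, 3.76 and 21.9 FPKM (log2 difference 3.51 ± 0.51, adjusted p 0.00177). Cdkn2a, which encodes p16 and p19ARF, was at 0.163, 0.157 and 0.230 FPKM against 2.92, 2.11 and 13.4 FPKM (log2 difference 2.25 ± 0.51, adjusted p 0.0119). Cdkn2a and Cdkn2b shared their order, with mouse 25 highest and mouse 15 lowest, the reverse of the order of Ccnb2. With 3 nodules such an order is a description and was not tested.

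**Figure D3:**
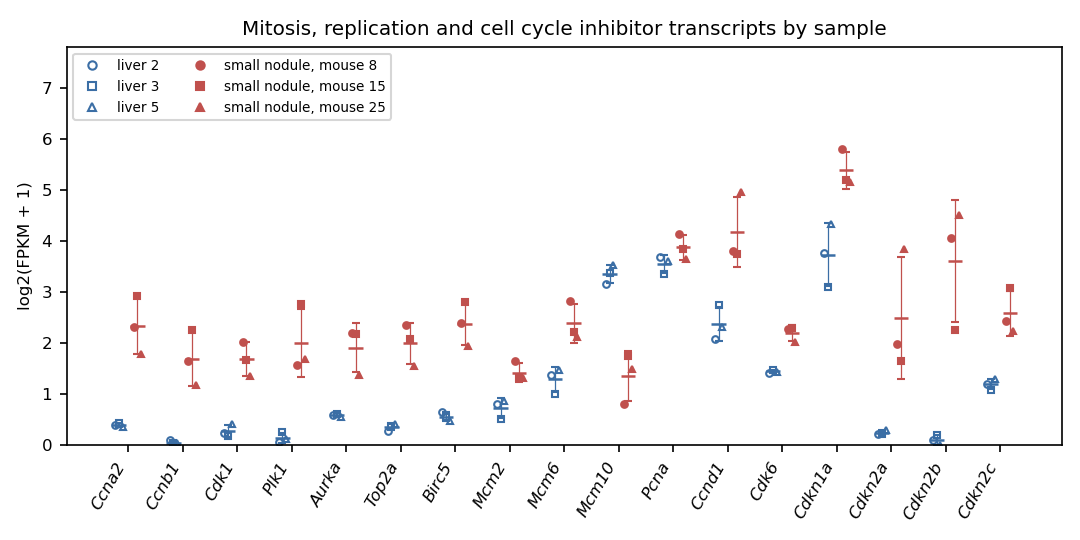
Levels of 17 cell cycle genes in log2(FPKM + 1), with livers as open blue symbols, small nodules as filled red symbols, a symbol shape per sample, and bars for the mean and SD of each group (n = 3). The 7 mitosis genes at the left stand clear of the livers, Pcna does not, Mcm10 lies lower in the nodules, and the INK4 genes Cdkn2a and Cdkn2b lie near 0 in the livers.

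DNA repair genes gave no call that held. Of 22 listed 14 passed (2 only through nodules), 5 rose and none fell, and under quantile normalization 0 rose and 2 fell. Removing liver 2, liver 3, or the small nodule of mouse 15 or 25 left 3 rises each, and with no filter 8 of 22 rose. Mgmt, which removes alkyl groups from guanine, was at 5.19, 4.78 and 6.47 FPKM in livers and 3.49, 4.0002 and 4.41 FPKM in nodules (adjusted p 0.0875). Mgmt was called lower under median-of-ratios scaling and under quantile normalization, with adjusted p from 0.0165 to 0.232 over its alternatives. Parp1, a sensor of strand breaks, overlapped at 8.95, 8.40 and 10.6 FPKM against 8.38, 8.60 and 5.93 FPKM (adjusted p 0.264). Apoptosis regulators of opposite effect rose side by side, 6 of 18 passing members (2 only through nodules), all under every alternative, with 8 of 21 rising with no filter. The pro-apoptotic Bax was at 9.27, 8.21 and 12.6 FPKM against 17.7, 20.0 and 23.0 FPKM (log2 difference 0.96 ± 0.18, adjusted p 0.00542). Bcl2l11, BIM, was at 0.347, 0.154 and 0.531 FPKM against 1.42, 1.97 and 1.71 FPKM (log2 difference 1.01 ± 0.15, adjusted p 0.0017). Pmaip1, NOXA, was at 0.568, 0.556 and 0.617 FPKM against 2.84, 1.78 and 3.72 FPKM (log2 difference 1.22 ± 0.19, adjusted p 0.00249). The anti-apoptotic Mcl1 was at 32.7, 40.4 and 35.1 FPKM against 52.9, 67.0 and 62.8 FPKM (log2 difference 0.74 ± 0.15, adjusted p 0.00662). Birc3, cIAP2, was at 2.66, 2.91 and 3.44 FPKM against 5.30, 6.04 and 6.04 FPKM (log2 difference 0.77 ± 0.13, adjusted p 0.00391). Casp8 and Birc2 overlapped between groups (adjusted p 0.738 and 0.801).

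Metabolic enzymes that exist as a liver isozyme and a counterpart of other tissues changed mostly on the side of the counterpart. Of 12 liver isozymes none rose and 1 fell. Median-of-ratios scaling gave 4 falls, and 2 liver isozymes rose and none fell without the small nodule of mouse 8. Of 15 counterparts 14 had a row, 10 passed (2 only through nodules) and 8 rose, 4 of them under every alternative and 5 in all without liver 2, without liver 3 or under median-of-ratios or quantile scaling. With no filter 10 of 14 rose. Pygb, the brain glycogen phosphorylase, was at 0.936, 1.15 and 1.09 FPKM against 14.5, 16.6 and 11.6 FPKM (log2 difference 2.88 ± 0.16, adjusted p 3.55e-05), against 84.6, 85.3 and 98.2 FPKM against 71.6, 76.6 and 58.1 FPKM for Pygl, its liver form (adjusted p 0.0847). Pygl was called lower under median-of-ratios scaling, with adjusted p from 0.0131 to 0.277 over its alternatives. Pck2, the mitochondrial phosphoenolpyruvate carboxykinase, was at 0.165, 0.234 and 0.243 FPKM against 1.14, 2.41 and 1.53 FPKM (log2 difference 1.12 ± 0.17, adjusted p 0.00239). Pkm, the muscle and tumour pyruvate kinase, was at 3.597, 3.98 and 4.31 FPKM against 11.1, 9.86 and 16.2 FPKM (log2 difference 1.41 ± 0.19, adjusted p 0.00119).

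A ratio within a sample does not depend on library scaling apart from the added 1. In 6 of 8 isozyme pairs the log2 ratio of the liver form to its counterpart was lower in all 3 nodules than in all 3 livers. Among single genes 49.7% did not overlap between the groups. The share among ratios of other gene pairs was not counted, so the 6 of 8 has no background to be read against. Pygl over Pygb went from 5.45 ± 0.12 in livers to 2.20 ± 0.05 in nodules (mean ± SD, n = 3), Pklr over Pkm from 3.94 ± 0.14 to 2.43 ± 0.41, and Pck1 over Pck2 from 9.54 ± 0.22 to 7.82 ± 0.72. The glycogen phosphorylase ratio varied least among the nodules. Gys2 over Gys1 and Slc2a2 over Slc2a1 overlapped. For Acacb over Acaca, 1 of the 6 pairs, the log2 ratio was only 0.299 to 1.49 in livers, so livers held RNA of both forms. The labels of liver form and counterpart are therefore doubtful for this pair. Acaca is also 1 of the 4 counterparts that rose under every alternative. By exact two-sided permutation test each non-overlapping pair had p = 0.1, the smallest value that 3 against 3 allows, and 0.133 after adjustment over the 8 pairs, so no pair could pass the threshold.

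**Figure D4:**
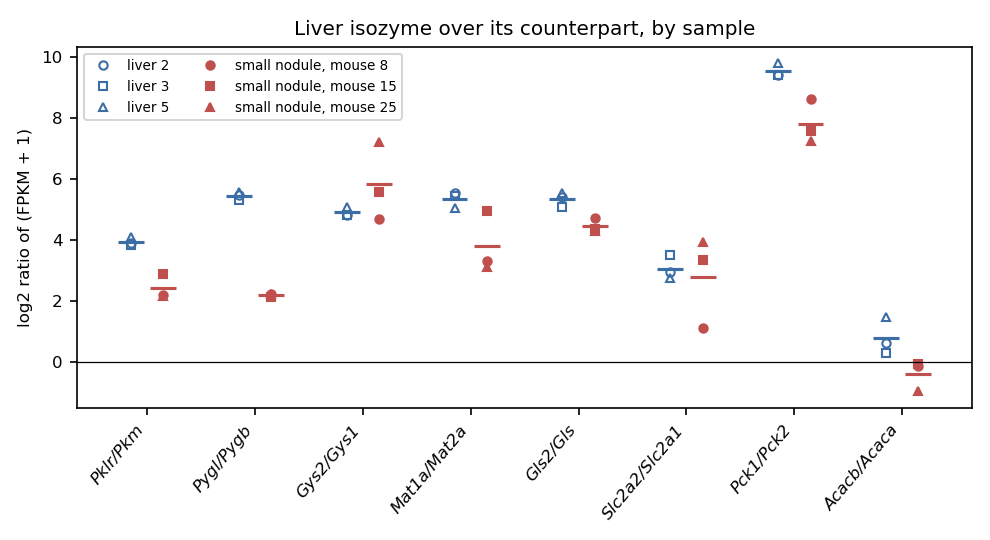
The log2 ratio of the liver isozyme to its counterpart, each as FPKM + 1, in 8 pairs and 6 samples, with livers as open blue symbols, small nodules as filled red symbols and the group mean as a bar. In 6 pairs the 3 nodules lie under the 3 livers, while Gys2/Gys1 and Slc2a2/Slc2a1 overlap.

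The transcript table gives the form of Pkm. Pkm-201 carries the downstream alternative exon (chr9:59675568-59675734, mm10), the M2 form of tumours and embryo, and Pkm-202 the upstream one (chr9:59675029-59675195), the M1 form of muscle. Pkm-201 made up 98.4%, 98.6% and 91.8% of Pkm FPKM in the nodules of mice 8, 15 and 25, and 89.5%, 92.4% and 45.0% in livers 2, 3 and 5, where Pkm-202 held 45.7% of liver 5. The M2 form was thus already the larger one in livers 2 and 3, at 3.38 and 2.71 FPKM against 8.63 to 13.2 FPKM in the nodules. These shares are StringTie estimates at low levels and were not tested.

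Enzymes of the methionine cycle, which makes and spends the methyl donor S-adenosylmethionine, gave falls and no rise. All 16 listed passed the filter, 9 fell and 7 were not called, with 7 of the falls under every alternative, and leaving out 1 sample gave 7 to 12 falls, the most without the small nodule of mouse 15. There was 1 rise after rescaling to the same sum, without liver 5 and without the small nodule of mouse 15. Cth, cystathionase, was at 149, 115 and 183 FPKM in livers and 35.6, 41.7 and 24.7 FPKM in nodules (log2 difference -2.11 ± 0.24, adjusted p 0.000575). Gnmt, which consumes surplus S-adenosylmethionine, was at 798, 759 and 1049 FPKM against 342, 289 and 146 FPKM (log2 difference -1.82 ± 0.31, adjusted p 0.0037). Ahcy, which hydrolyses the product, was at 531, 507 and 660.4 FPKM against 215, 326 and 163 FPKM (log2 difference -1.32 ± 0.25, adjusted p 0.00611), and Sardh and Dmgdh, which return the methyl groups of sarcosine and dimethylglycine, went from 91.2 to 144 and 138 to 198 to 30.3 to 42.7 and 32.2 to 72.1 FPKM (adjusted p 0.00129 and 0.00288). Mtr, methionine synthase, and Chdh, choline dehydrogenase, overlapped (1.59 to 2.02 and 26.3 to 29.4 FPKM against 1.52 to 1.95 and 29.4 to 31.0 FPKM). Mat1a, the liver S-adenosylmethionine synthetase, was at 501, 502 and 559.9 FPKM against 214, 473 and 244 FPKM (adjusted p 0.0542), near the livers in mouse 15, and was called lower without the small nodule of mouse 15, under median-of-ratios scaling and with the big nodules in the fit, with adjusted p from 0.00169 to 0.288 over its alternatives.

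Folate and nucleotide synthesis was mixed: all 22 listed passed (4 only through nodules), 7 rose and 4 fell, with 3 rises and 1 fall under every alternative and 6 and 5 with no filter. The falls numbered 1 to 2 without liver 2, liver 5 or any 1 of the nodules and 1 after rescaling to the same sum, and the rises 4 without liver 2 or the small nodule of mouse 8 and 3 under quantile normalization. Mthfd1l, a mitochondrial formate-producing enzyme, was at 0.129, 0.0926 and 0.0912 FPKM in livers and 1.75, 1.96 and 5.64 FPKM in nodules (log2 difference 1.78 ± 0.31, adjusted p 0.004). Rrm2, the cell-cycle-regulated ribonucleotide reductase subunit, was at 2.16, 2.59 and 2.40 FPKM against 13.2, 9.32 and 5.47 FPKM (log2 difference 1.54 ± 0.27, adjusted p 0.00373). Ppat, the first enzyme of purine synthesis, fell from 8.69, 9.08 and 8.15 FPKM to 4.61, 4.32 and 4.56 FPKM (log2 difference -0.81 ± 0.12, adjusted p 0.00177). Polyamine genes gave 1 rise among 12, with the filter and without it, Smox, spermine oxidase, which passed only through the nodules, at 0.382, 0.313 and 0.391 FPKM against 5.64, 4.396 and 9.95 FPKM (log2 difference 2.43 ± 0.24, adjusted p 0.000393). Odc1, ornithine decarboxylase, overlapped at 25.8, 23.5 and 23.2 FPKM against 22.3, 26.2 and 19.4 FPKM (adjusted p 0.639). Among 21 phospholipid and sphingolipid genes that passed (1 only through nodules) 5 rose and 3 fell, 4 and 1 of them under every alternative, and with no filter 6 of 24 rose and 3 fell. Falls numbered 1 without liver 2, without liver 5 or without the small nodule of mouse 25. The ceramide genes Sptlc2, Cers6 and Ugcg went from 2.89 to 2.93, 0.947 to 1.36 and 2.83 to 4.13 to 7.41 to 8.42, 3.83 to 9.75 and 8.45 to 10.6 FPKM (adjusted p 0.000403, 0.00225 and 0.000914), and Pemt, which methylates phosphatidylethanolamine, fell from 77.8, 70.0 and 86.0 FPKM to 44.3, 42.6 and 21.6 FPKM (log2 difference -1.15 ± 0.27, adjusted p 0.0133).

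Transcription factors that define hepatocytes gave calls in both directions. Of 22 liver factors that passed 3 rose, 3 fell and 16 were not called, with a median log2 difference of -0.40 against 0.14 over all genes. Of the falls 2 held under every alternative, and median-of-ratios scaling gave 6. No rise held: 0 were called without liver 5, without the small nodule of mouse 8 or under median-of-ratios or quantile scaling, and 1 with no filter, without liver 2 or 3 or without the nodule of mouse 15 or 25. Hnf4a, the central hepatocyte factor, was at 127, 115 and 115 FPKM in livers and 138, 115 and 121 FPKM in nodules (adjusted p 0.744). The factors that fell were Zbtb20, a repressor of Afp in adult mouse liver, at 3.65, 4.04 and 4.06 FPKM against 1.97, 2.32 and 2.33 FPKM (log2 difference -0.62 ± 0.12, adjusted p 0.00663). Onecut2 was at 7.02, 8.79 and 4.56 FPKM against 1.95, 2.05 and 1.04 FPKM (log2 difference -1.52 ± 0.25, adjusted p 0.00277). All 3 nodules lay under all 3 livers in both. Mlxipl, the carbohydrate response factor, was at 55.6, 50.9 and 65.0 FPKM against 45.1, 37.8 and 37.1 FPKM (log2 difference -0.50 ± 0.15, adjusted p 0.0318). The call was lost without liver 2, liver 5, the small nodule of mouse 15 or the small nodule of mouse 25, with samples rescaled to the same sum and under quantile normalization, with adjusted p from 0.0105 to 0.103 over its alternatives.

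Of 25 nuclear receptors that passed 1 rose, 5 fell and 19 were not called, and 3 falls held under every alternative. The falls numbered 3 after rescaling to the same sum, without liver 2, without liver 5 or without the small nodule of mouse 8, and 8 under median-of-ratios scaling. The rises numbered 4 after rescaling to the same sum, 2 without the nodule of mouse 8 and 0 without any 1 of the livers or the nodule of mouse 25, under median-of-ratios or quantile scaling or with the big nodules in the fit. Nr1i3, the xenobiotic receptor CAR, was at 54.0, 34.0 and 35.5 FPKM in livers and 6.48, 14.7 and 4.16 FPKM in nodules (log2 difference -2.29 ± 0.39, adjusted p 0.00343). Nr2f6 was at 18.5, 16.9 and 24.0 FPKM against 11.1, 10.7 and 12.004 FPKM (log2 difference -0.75 ± 0.16, adjusted p 0.00855). Nr1i2, the related receptor PXR, and Rxra, the shared partner, overlapped (32.1, 30.1 and 36.3 against 28.0, 35.6 and 29.2 FPKM, and 57.9, 49.0 and 48.9 against 41.4, 69.5 and 59.9 FPKM, adjusted p 0.679 and 0.726). DNA methylation and Polycomb genes gave 2 rises of 9 that passed, Ezh1 and Bmi1, neither of which held. The Ezh1 call was lost without liver 3, liver 5, the small nodule of mouse 8 or the small nodule of mouse 15, under median-of-ratios scaling and under quantile normalization, with adjusted p from 0.0112 to 0.229 over its alternatives. The Bmi1 call was lost without liver 2, liver 3, liver 5, the small nodule of mouse 15 or the small nodule of mouse 25, with no filter, under median-of-ratios scaling and under quantile normalization, with adjusted p from 0.0211 to 0.148 over its alternatives.

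Of the epithelial junction and keratin genes 10 of 20 that passed (1 only through nodules) rose and 2 fell, and 12 of 24 with no filter, with 9 rises under every alternative. Neither fall held in all: 0 were called without liver 3, without liver 5 or without the small nodule of mouse 25, and 1 without liver 2, without the small nodule of mouse 8 or after rescaling to the same sum. Cdh1, E-cadherin, was at 6.17, 8.25 and 8.97 FPKM in livers and 63.3, 37.0 and 44.6 FPKM in nodules (log2 difference 2.47 ± 0.22, adjusted p 0.000232). Ocln, occludin, was at 2.43, 3.62 and 3.14 FPKM against 13.7, 13.7 and 8.88 FPKM (log2 difference 1.67 ± 0.20, adjusted p 0.000723). Tjp1, its tight junction scaffold ZO-1, was at 4.70, 4.71 and 4.88 FPKM against 11.1, 11.03 and 14.7 FPKM (log2 difference 1.19 ± 0.14, adjusted p 0.000776). The hepatocyte keratins Krt8 and Krt18 went from 106 to 146 and 121 to 194 to 228 to 241 and 299 to 449.5 FPKM (adjusted p 0.00265 and 0.00328). Krt23, a keratin induced in injured liver, went from 0.243, 0.438 and 0.976 FPKM to 9.66, 12.05 and 3.19 FPKM (log2 difference 2.45 ± 0.41, adjusted p 0.00309). Vim, the mesenchymal intermediate filament vimentin, rose as well, from 3.24, 4.98 and 4.57 FPKM to 13.9, 13.9 and 15.1 FPKM (log2 difference 1.55 ± 0.16, adjusted p 0.00041), so E-cadherin and vimentin were both higher. The bile duct keratins Krt7 and Krt19 were at 0 to 0.162 and 0.585 to 1.74 FPKM in nodules, within or near the liver ranges of 0.0501 to 0.131 and 0.841 to 1.76 FPKM.

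Of 22 proteases and inhibitors 15 passed (6 only through nodules), 10 rose and 2 fell, 7 and 1 under every alternative and 7 and 1 without liver 2. With no filter 13 of 22 rose and 2 fell. Timp3, a matrix metalloproteinase inhibitor, was at 3.44, 5.17 and 4.01 FPKM in livers and 11.5, 11.96 and 11.5 FPKM in nodules (log2 difference 1.295 ± 0.15, adjusted p 0.00068). Mmp14, a membrane-bound metalloproteinase, was at 4.45, 4.05 and 5.50 FPKM against 14.8, 12.9 and 8.49 FPKM (log2 difference 1.18 ± 0.21, adjusted p 0.00422). The urokinase Plau and its receptor Plaur went from 0.268 to 0.618 and 0 to 0.234 to 1.79 to 2.53 and 1.09 to 1.282 FPKM (adjusted p 0.000902 and 0.000785). Serpine2, a thrombin and plasmin inhibitor, fell from 4.65, 4.78 and 5.04 FPKM to 0.460, 0.424 and 0.857 FPKM (log2 difference -1.89 ± 0.14, adjusted p 0.000113). Mmp12, the macrophage elastase, was at 0.0639, 0.0711 and 0.0361 FPKM against 1.17, 11.2 and 1.03 FPKM, high in mouse 15 only (adjusted p 0.0531). Mmp12 was called without the small nodule of mouse 8, the small nodule of mouse 15 or the small nodule of mouse 25, at a pseudocount of 0.1, with samples rescaled to the same sum and with the big nodules in the fit, with adjusted p from 0.00102 to 0.123 over its alternatives. Of 22 listed secreted proteins of gut, pancreas and neuroendocrine epithelium 14 had a row and 6 passed (3 only through nodules), 5 of which rose. With no filter 5 of 12 rose and 1 fell. They were Cpe and Spink1, described above, Tff3, intestinal trefoil factor, at 4.16, 3.38 and 0.373 FPKM against 279, 174 and 189 FPKM (log2 difference 6.07 ± 0.47, adjusted p 0.000129), and the antiprotease-like Slpi and Wfdc15b, at 16.2 to 32.9 and 23.6 to 79.8 FPKM in nodules and 0.303 to 1.82 and 0.161 to 0.871 FPKM in livers (adjusted p 0.000249 and 0.000166). Cpe, Tff3, Spink1 and Wfdc15b are also among the 12 largest rises, and the list was chosen with earlier results of these data known. The count of rises in this list therefore repeats those genes. The neuroendocrine granule genes Chga, listed at 0 in all 6 samples, and Scg5 were silent or nearly so, as was Prss2, a trypsinogen (0 to 0.0729 and 0 to 0.140 FPKM in nodules). The fall, of Wfdc2, was lost without liver 3, liver 5, the small nodule of mouse 8 or the small nodule of mouse 15 and with the big nodules in the fit, with adjusted p from 0.00829 to 0.112 over its alternatives.

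Iron genes gave 4 rises and 2 falls among 20, and the 4 rises held under every alternative. The falls were 0 without liver 2 or without liver 5, 1 with no filter and 6 under median-of-ratios scaling. Cp, the ferroxidase ceruloplasmin, was at 122, 137 and 111 FPKM in livers and 305, 314 and 377 FPKM in nodules (log2 difference 1.43 ± 0.15, adjusted p 0.000422). Hmox1, heme oxygenase 1, was at 9.54, 10.1 and 5.88 FPKM against 16.99, 20.8 and 20.1 FPKM (log2 difference 1.12 ± 0.20, adjusted p 0.00446). Lcn2, the siderophore-binding lipocalin 2, was at 38.3, 9.77 and 1.72 FPKM against 159.8, 141 and 136 FPKM (log2 difference 3.80 ± 0.81, adjusted p 0.00927). Its 3 nodules were even and its 3 livers were not. Fth1 and Ftl1, the ferritin chains, were not called (1158 to 1403 and 361 to 457 FPKM against 1118 to 1228 and 403 to 453 FPKM). Ftl1 was called under quantile normalization, with adjusted p from 0.0321 to 0.916 over its alternatives. Hypoxia-induced genes gave 3 rises and 3 falls among 14, with Adm rising (1.10, 0.791 and 1.27 to 2.36, 2.38 and 2.54 FPKM, log2 difference 0.74 ± 0.13, adjusted p 0.00403) and P4ha2 falling (1.79, 2.38 and 2.14 to 0.607, 0.851 and 0.558 FPKM, log2 difference -0.89 ± 0.13, adjusted p 0.00191) under every alternative. The rises were 1 without liver 2 or without liver 3. Ldha, lactate dehydrogenase A, was at 157, 131 and 151 FPKM against 164, 146 and 119.7 FPKM (adjusted p 0.889), and Car9, a sensitive marker of hypoxia, was at 0.0447 to 0.159 FPKM in livers and 0.0475 to 0.149 FPKM in nodules.

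Lysosomal genes gave 10 rises and 1 fall among 20 that passed, none only through nodules, with 7 rises under every alternative. Hexa, a lysosomal glycosidase subunit, was at 23.9, 18.4 and 22.8 FPKM in livers and 73.1, 70.4 and 71.4 FPKM in nodules (log2 difference 1.69 ± 0.14, adjusted p 0.000152). Hexa was almost constant among the nodules. Ctsd and Ctsz, cathepsins D and Z, went from 62.7 to 89.9 and 145 to 154 to 156 to 159 and 252 to 305 FPKM (adjusted p 0.00255 and 0.00172), and Npc1 and Npc2, the cholesterol exporters of the lysosome, from 7.34 to 8.90 and 10.2 to 10.5 to 12.8 to 18.8 and 17.2 to 19.9 FPKM (adjusted p 0.00446 and 0.00229). Tfeb and Tfe3, regulators of lysosomal genes, overlapped (1.10 to 1.45 and 2.83 to 3.06 FPKM against 0.844 to 1.197 and 2.66 to 3.11 FPKM). Tfeb was called lower under quantile normalization, with adjusted p from 0.0265 to 0.896 over its alternatives. The fall, of Lamp2, was lost without liver 2, liver 3, liver 5, the small nodule of mouse 8 or the small nodule of mouse 25, with samples rescaled to the same sum, under quantile normalization and with the big nodules in the fit, with adjusted p from 0.00801 to 0.154 over its alternatives. Macrophages are rich in lysosomes, and the macrophage markers described below moved with this list. Their part in it was not tested.

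**Figure D5:**
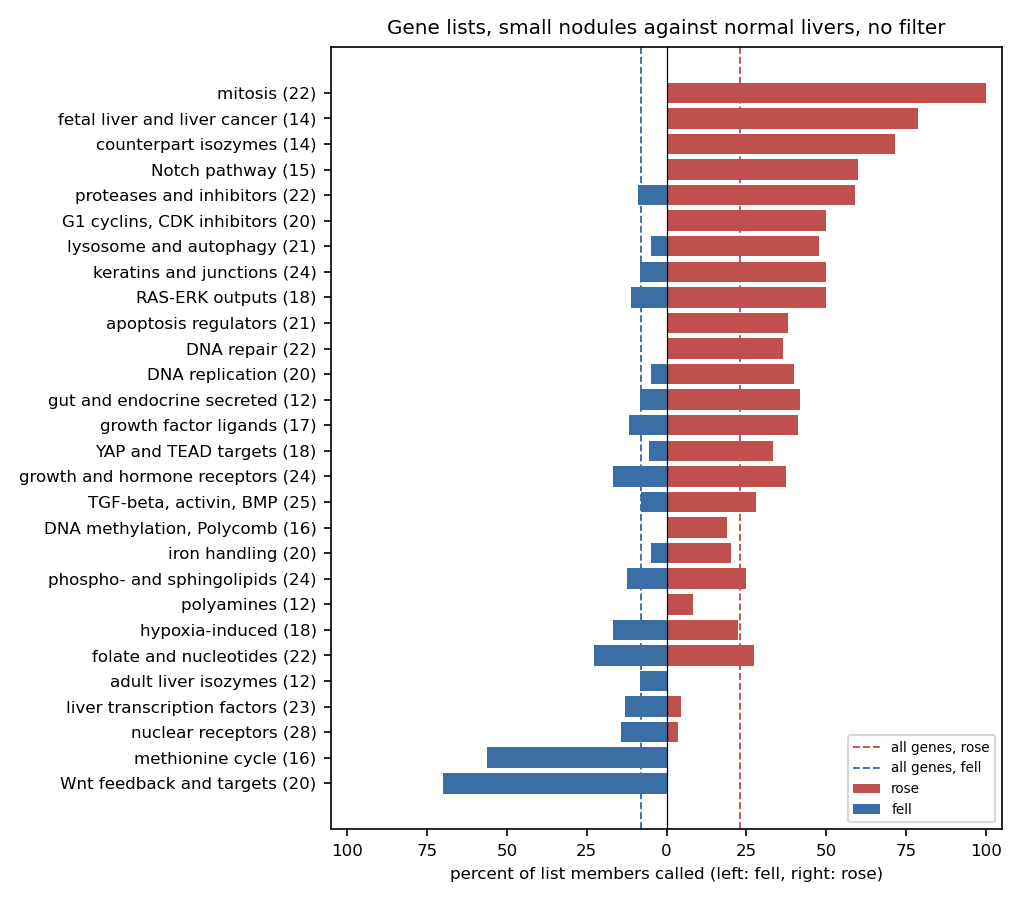
Percent of the members of 28 gene lists that rose (red, to the right) or fell (blue, to the left) in small nodules against livers in the fit with no filter on low values, with the number of members tested in parentheses. Dashed lines give the share of all 13685 genes that rose (22.9%) and fell (8.13%), and mitosis (22 of 22) and the Wnt list (14 of 20) lie at the ends.

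Markers of the cell types a nodule can hold were summed per sample. The 14 hepatocyte markers summed to 28966 to 33246 FPKM in livers and 39917 to 47399 FPKM in nodules, so that both tissues were rich in hepatocyte RNA, and 7 rose and 2 fell, with 2 rises under every alternative (Apoa1 and Serpina1a), 3 rises and 5 falls under median-of-ratios scaling and 4 rises without liver 2 or without the small nodule of mouse 8. Alb and Apoa1 averaged 9579 and 3627 FPKM more in nodules and made most of the gain in that sum. The 14 markers of recruited macrophages summed to 106 to 138 FPKM in livers and 306 to 424 FPKM in nodules, highest in mouse 15, and all 9 that passed (1 only through nodules) rose, 8 under every alternative, with 10 of 14 rising with no filter. Cd9, a tetraspanin not restricted to macrophages, was part of that sum (8.07, 8.30 and 8.86 FPKM in livers and 75.3, 94.5 and 63.0 FPKM in nodules). C1qb, a complement chain of tissue macrophages, went from 24.6, 26.7 and 20.4 FPKM to 55.2, 75.5 and 69.3 FPKM (log2 difference 1.44 ± 0.17, adjusted p 0.000646). Cd68, a lysosomal macrophage protein, went from 4.76, 4.61 and 2.25 FPKM to 11.6, 22.2 and 13.1 FPKM (log2 difference 1.76 ± 0.30, adjusted p 0.00334). Kupffer cell markers, those of resident macrophages, summed to 193 to 257 FPKM and 191 to 246 FPKM, with 1 rise, Cd5l, and 3 falls among 9, 1 and 2 of them under every alternative and 2 falls without liver 2, without liver 3 or without the small nodule of mouse 8. Clec4f, the most specific of them, was at 39.5, 49.6 and 42.2 FPKM against 44.0, 35.2 and 55.2 FPKM (adjusted p 0.959).

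Endothelial, fibroblast and antigen-presenting cell markers rose in part. Sinusoidal markers summed to 94.7 to 102 FPKM in livers and 126 to 141 FPKM in nodules, with 6 of 12 rising, 3 of them under every alternative, and 3 without liver 2, without the small nodule of mouse 8 or without that of mouse 25. Lyve1, a hyaluronan receptor, went from 4.17, 5.35 and 5.28 FPKM to 23.6, 24.2 and 23.3 FPKM (log2 difference 2.06 ± 0.13, adjusted p 5.31e-05), while Clec4g and Dnase1l3 overlapped (22.6, 23.2 and 25.9 and 11.4, 12.7 and 10.01 FPKM in livers, 22.7, 18.6 and 19.2 and 8.41, 8.67 and 11.6 FPKM in nodules). Clec4g was called lower under median-of-ratios scaling, with adjusted p from 0.0436 to 0.625 over its alternatives. Capillary markers, of continuous and tumour endothelium, summed to 40.9 to 55.2 and 86.1 to 124 FPKM, and 3 of 6 that passed rose. Esm1, endocan, a product of endothelial tip cells, went from 0.183, 0.339 and 1.34 FPKM to 55.8, 31.1 and 22.9 FPKM (log2 difference 4.51 ± 0.36, adjusted p 0.000149). Cdh5, VE-cadherin, went from 6.31, 6.26 and 6.38 FPKM to 17.6, 17.1 and 14.9 FPKM (log2 difference 1.26 ± 0.12, adjusted p 0.000335). Stellate cell and fibroblast markers summed to 70.2 to 83.7 and 98.4 to 119 FPKM, with 6 rises and 1 fall among 13, 4 rises under every alternative and 4 rises without liver 2. The rises were of matrix and contractile genes, such as Col1a1 (0.604, 2.23 and 1.00 to 6.31, 8.08 and 9.76 FPKM, log2 difference 2.03 ± 0.27, adjusted p 0.00114) and Acta2 (1.67, 4.91 and 2.60 to 10.1, 10.98 and 11.6 FPKM, log2 difference 1.63 ± 0.27, adjusted p 0.00307). Lrat, a marker of quiescent stellate cells, was at 3.41, 2.56 and 2.85 FPKM in livers and 2.44, 2.45 and 1.77 FPKM in nodules. Des, listed for both stellate cells and pericytes, was at 1.36, 1.49 and 1.89 FPKM in livers and 1.40, 1.59 and 1.70 FPKM in nodules. Lrat was called lower under median-of-ratios scaling and under quantile normalization, with adjusted p from 0.0217 to 0.42 over its alternatives.

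Cholangiocyte markers summed to 62.0 to 71.5 and 251 to 424 FPKM, most of it Spp1, osteopontin, which many cells secrete (35.6, 37.7 and 28.8 to 209, 275 and 379.9 FPKM, log2 difference 3.01 ± 0.23, adjusted p 0.000114). Of 6 that passed 3 rose, 1 of them, Spp1, under every alternative, and 1 without liver 3, liver 5 or the small nodule of mouse 8 or 15. The defining members Krt7 and Cldn4 lay under 0.25 FPKM in all 6 samples. Lymphocyte and granulocyte RNA was scarce. T and NK cell markers summed to 3.92 to 5.57 FPKM in livers and 8.22, 11.4 and 39.3 FPKM in the nodules of mice 8, 15 and 25, and 1 of 15 passed the filter, Ccl5, only through the nodules. With no filter 3 of 15 rose. Ccl5 was at 0.648, 0.143 and 0.763 FPKM against 2.24, 3.16 and 16.2 FPKM (log2 difference 2.04 ± 0.57, adjusted p 0.0272). The call was lost without liver 2, liver 3 or liver 5 and under quantile normalization, with adjusted p from 0.00534 to 0.0915 over its alternatives. Cd3e, a T cell receptor chain, was at 0.0818, 0.133 and 0.0675 FPKM against 0.167, 0.238 and 1.03 FPKM and Cd8b1 at 0.481, 0.679 and 0.564 FPKM against 0.816, 1.67 and 3.79 FPKM, so the mouse 25 nodule stood above the rest. Neutrophil markers summed to 1.305 to 2.14 and 4.63 to 16.5 FPKM with Ly6g and Camp listed at 0 in all 6 samples, and S100a9, calprotectin, went from 0.641, 0.982 and 0.929 FPKM to 7.43, 3.79 and 2.30 FPKM (log2 difference 1.47 ± 0.31, adjusted p 0.00881). S100a9 was the only neutrophil marker that passed the filter and did so only through the nodules, and with no filter 3 of 8 rose. Of 8 B and plasma cell markers 2 passed and neither was called (sums of 38.2 to 64.7 and 47.5 to 53.9 FPKM, of which Sdc1, also a hepatocyte gene, held most). Of 12 dendritic cell markers 6 passed and 4 rose, which were Fscn1, H2-Aa, H2-Ab1 and Cd74. H2-Aa, H2-Ab1 and Cd74 belong to the MHC class II pathway, which is not restricted to dendritic cells. H2-Aa went from 8.13, 14.6 and 11.4 FPKM to 31.2, 45.0 and 51.8 FPKM (log2 difference 1.82 ± 0.25, adjusted p 0.00129), while Xcr1 stayed under 0.15 FPKM. Globin and other erythroid markers summed to 75.3 to 104.9 and 64.8 to 125 FPKM, with 2 rises among 5 (0 without liver 2 or the small nodule of mouse 8, 4 without liver 3 or the nodule of mouse 25), and Alas2, the first enzyme of erythroid heme synthesis, fell from 67.0, 53.3 and 63.0 FPKM to 9.45, 11.5 and 11.6 FPKM (log2 difference -2.39 ± 0.14, adjusted p 4.82e-05). Mesothelial, acinar, adipocyte and smooth muscle markers summed to at most 48.7 FPKM in any of the 6 samples, with 0, 0, 2 and 1 rises and 0, 0, 2 and 0 falls. How far cell makeup enters each result was not tested.

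The 3 small nodules differed among themselves in a few genes far more than in most. Dbp, a clock-driven transcription factor, had the widest log2 span of the 10 genes named for their spread: 1.84, 12.6 and 61.4 FPKM against 0.665, 1.16 and 1.08 FPKM in livers (adjusted p 0.0537). Dbp was called higher without the small nodule of mouse 8, at a pseudocount of 0.1 and with samples rescaled to the same sum, with adjusted p from 0.00388 to 0.16 over its alternatives. Other clock genes, added after the Dbp values were seen, lined up with it by mouse in most cases. Arntl, which encodes the activator BMAL1, was at 6.76, 4.31 and 0.501 FPKM and Npas2 at 6.03, 1.47 and 0.259 FPKM in nodules, highest in mouse 8 and lowest in mouse 25, while Nr1d1, which represses Arntl, was at 11.5, 28.9 and 59.8 FPKM and Ciart at 0.102, 1.66 and 7.15 FPKM, lowest in mouse 8 and highest in mouse 25. Nr1d1 was called without the small nodule of mouse 8 and with samples rescaled to the same sum, with adjusted p from 0.013 to 0.173 over its alternatives. The big nodules of the same mice kept that order, with Dbp at 0.331, 24.1 and 81.9 FPKM and Arntl at 8.55, 2.80 and 0.332 FPKM, and the livers spanned only 0.665 to 1.16 and 4.64 to 6.41 FPKM. The labels give no time of day of collection for any mouse, so clock state by mouse and any other difference between the mice cannot be told apart. Nfil3 and Cry1, clock genes with calls, ranged from 43.9 to 73.0 FPKM in the livers and from 4.72 to 27.3 FPKM in the small nodules and from 8.55 to 11.7 FPKM in the livers and from 1.01 to 7.68 FPKM in the small nodules (adjusted p 0.0209 and 0.0445), and both were lowest in mouse 25. The Nfil3 call was lost without liver 2 or liver 5, with adjusted p from 0.00707 to 0.0718 over its alternatives. The Cry1 call was lost without liver 2, liver 3, liver 5, the small nodule of mouse 15 or the small nodule of mouse 25, at a pseudocount of 0.1, with no filter, with samples rescaled to the same sum, with robust variance moderation and with the big nodules in the fit, with adjusted p from 0.0037 to 0.121 over its alternatives.

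Among the other wide genes, Erdr1, of the region shared by the X and Y chromosomes, also kept its order by mouse, at 3.196, 14.5 and 46.5 FPKM in small nodules and 2.87, 11.5 and 45.1 FPKM in big ones, against 32.0, 31.6 and 10.1 FPKM in livers (adjusted p 0.584). Xlr3a, an X-linked gene, was low in both nodules of mouse 25, at 9.40, 10.8 and 0.146 FPKM in small nodules and 15.5, 15.5 and 0.249 FPKM in big ones, against 0.535, 0.0347 and 2.57 FPKM in livers (adjusted p 0.214). Xlr3a was called without the small nodule of mouse 25, with adjusted p from 0.00602 to 0.477 over its alternatives. Hamp, the iron hormone hepcidin, was at 998, 1395 and 800.0 FPKM in livers and 53.4, 476 and 494 FPKM in nodules (adjusted p 0.0696). Hamp was called lower without the small nodule of mouse 8 or the small nodule of mouse 25 and under median-of-ratios scaling, with adjusted p from 0.0191 to 0.201 over its alternatives. Fgf21, a fasting and stress hormone of liver, was at 3.48, 5.11 and 2.27 FPKM against 3.54, 42.9 and 9.64 FPKM (adjusted p 0.143), high in mouse 15, and was called without the small nodule of mouse 8, with adjusted p from 0.0262 to 0.306 over its alternatives. Gpnmb and Trem2, genes of lipid-laden macrophages, were at 0.745, 10.3 and 1.03 and 0.464, 1.39 and 0.299 FPKM, also high in mouse 15, as was Nupr1, a stress-induced regulator, at 4.04, 28.2 and 5.41 FPKM. Nupr1 was called higher (adjusted p 0.0203). The call was lost without liver 2 or liver 5, with adjusted p from 0.00654 to 0.0684 over its alternatives. C1rb, a complement protease with a close copy in the mouse genome, was at 0, 18.6 and 17.4 FPKM in nodules and 17.1, 8.17 and 15.3 FPKM in livers. Among Hnf4a transcripts, Hnf4a-202 made up 89.6% of Hnf4a FPKM in mouse 8 and 1.56% to 15.2% in the other 5 samples, and Hnf4a-201 made up 9.43% and 79.9% to 96.8%. The first exons of these forms begin at positions 163547187 and 163547188 of chromosome 2, so reads of most of their length fit both. Hnf4a-205, which begins at position 163506808 of chromosome 2, upstream of both, made up 4.20% of Hnf4a FPKM in mouse 25 and at most 0.441% in the other 5 samples.

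None of the 10415 genes tested differed between the 3 small and the 3 big nodules at an adjusted p under 0.05 (0%), with 417 at an unadjusted p under 0.05 and a smallest adjusted p of 0.0929. Blocking on the mouse also gave 0 calls, with 763 at an unadjusted p under 0.05. No value above is therefore shown to be particular to small nodules. The smallest p belonged to 2 amino acid transporters with opposite signs. Slc43a2, an exchanger of large neutral amino acids, was at 0.245, 0.321 and 0.283 FPKM in small and 1.83, 2.16 and 1.83 FPKM in big nodules of mice 8, 15 and 25. Slc36a1, a lysosomal proton-coupled amino acid transporter, was at 4.75, 6.89 and 6.62 FPKM in small and 1.13, 1.49 and 1.34 FPKM in big nodules. Neither gene overlapped between the sizes. For Slc43a2, under 1 FPKM in every small nodule, this follows from the filter, which required every big nodule to reach 1 FPKM. The share of all genes without overlap between the sizes was not counted. The log2 differences of Slc43a2 and Slc36a1 were -1.19 ± 0.12 and 1.60 ± 0.17, both with adjusted p 0.0929. With the mouse as a block in the limma fit their adjusted p were 0.374 and 0.269. Afp came next, at 32.1, 21.4 and 35.6 FPKM in small and 173, 149.8 and 90.6 FPKM in big nodules (log2 difference -2.16 ± 0.29, adjusted p 0.345, or 0.672 with the mouse as a block), every small nodule under every big one. In the big nodules Cpe was at 188 to 216 FPKM, Cd63 at 53.7 to 71.4 FPKM, Cdkn2b at 18.8 to 35.4 FPKM, Ccnb2 at 2.55 to 5.17 FPKM and Glul at 13.6 to 56.8 FPKM, and none of the 5 was called between sizes. Leaving out both nodules of mouse 8 gave 1 call, Gm20431. A p that misses the threshold with 3 against 3 does not show that the sizes are alike.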

How the data were processed

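RNA of 3 small nodules, 3 big nodules and 3 normal livers of mice was measured by sequencing of polyadenylated RNA with a stranded kit. The authors deposited FPKM per gene and per transcript. FastQC 0.11.7, cutadapt, HISAT2 2.1.0, StringTie 1.3.3 and genome build mm10 are named in the submitters' processing notes, while the sources used here do not give the annotation release, the strand setting or read counts. Depth is therefore unknown, and no counting interval is given.

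Samples were grouped by titles. The columns of livers 3 and 5 carry their own numbers, but the titles of both name mouse 3, so which animal each liver came from is uncertain; both were used as normal livers. Values were taken as log2(FPKM + 1), genes with at least 1 FPKM in at least 3 of the 6 samples were kept, and the groups were compared with limma 3.58.1 (R 4.3.3, moderated variance with trend) without covariates, with Benjamini-Hochberg adjustment over all genes tested and a threshold of 0.05. Because the pseudocount is 1, fold changes of low genes are understated. The titles give 1 nodule of each size per mouse, and p-values measure the spread between samples, which for livers 3 and 5 may be within 1 animal. Small and big nodules were compared in the same way. The titles name the same mouse for both. Deviations from the group means correlated at 0.307, 0.252 and 0.325 within a mouse and at -0.249 to -0.0365 between mice. Deviations from a mean of 3 sum to 0, so the values between mice are not independent of those within a mouse. The pairing was taken from the titles, and a fit with the mouse as a block was run beside the unblocked one. Isozyme ratios were compared with exact permutation tests (Python 3.11.15, SciPy 1.17.1, NumPy 2.4.6, pandas 2.3.3), and figures were drawn with matplotlib 3.10.9.

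Members and gene lists were chosen with earlier results of these data known. Genes named are, among called genes whose groups did not overlap and whose higher group averaged 5 FPKM or more, the 12 largest and 12 smallest-p changes each way, the 6 largest FPKM differences each way, up to 4 members per list and any needed to describe it, the 10 widest among small nodules, and a fixed set (Alb, Apoa1, Afp, Gpc3, Glul, Mki67 and the isozyme pairs). Some genes and pairs that these rules would name are not reported here, and the counts over the lists include those genes. Clock genes, Y-linked genes and the genes named for nodule size were chosen after their values were seen. Alternatives were a pseudocount of 0.1, no filter and a filter at 5 FPKM, 3 rescalings, 2 other variance settings, the big nodules in the fit, and leaving out each sample, with the genes tested kept the same.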

Additional observations from a re-analysis of the deposited data

How the results depend on the processing

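Of 209 tested genes that the naming rules cover, 163 stayed on the same side of the threshold under every alternative that tested them, 46 did not under at least 1, and 0 of their calls reversed. A filter at 5 FPKM, which tests fewer genes, gave 2024 calls, 1184 of them rises, and 128 calls over the lists, 78 of them rises. The falls numbered 1872 under median-of-ratios scaling and 1613 under quantile normalization; the cause was not tested. Leaving out 1 sample gave 2352 to 3320 calls, 1656 to 2160 rises and 696 to 1160 falls, the fewest without liver 2, and 169 to 219 calls, 130 to 159 rises and 39 to 60 falls over the lists, again fewest without liver 2. The fit with fewer samples has fewer degrees of freedom. The isozyme pairs without overlap numbered 6 under each alternative. Between small and big nodules the replicate block gave 0 calls, as did the unblocked fit, and leaving out 1 mouse gave 0 to 1. The 1 call, Gm20431, appeared without mouse 8. Transcript shares had no alternatives. With 3 samples a group, low genes and modest differences are poorly resolved, and depth is unknown.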
